A study of Mus musculus with 7 samples.

Results

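Transcripts of 10 genes of the insulin and insulin-like growth factor (IGF) system were followed in mouse lung and lung tumors: the ligand Igf1, the receptors Igf1r and Insr, the adaptors Irs1 and Irs2, and the binding proteins Igfbp2 to Igfbp6. They were chosen by gene symbol from the 22447 genes in the files, and all 10 were present and among the 14057 genes tested. The RNA sequencing comprised 7 libraries: 3 lung tumors of mice with the genotype EZH2 overexpression (OE tumors), 2 samples of lung labelled normal with that same genotype (OE normal lung) and 2 samples of lung from wild-type animals (WT lung). EZH2 is a histone methyltransferase of Polycomb repressive complex 2. No source used here gives the promoter or cell type that drives the overexpression, or the strain and age of the animals. The labels do not say whether replicates came from different mice, which the sex-linked transcripts given below settle for some of them, so part of the sample-to-sample spread behind the p-values may be technical. Culture of minced tumor nodules is described beside a source given as lung tissue, so whether tissue or cultured cells gave the RNA is not stated.

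IGF1 and insulin bind the receptor tyrosine kinases IGF1R and INSR, which phosphorylate the adaptor proteins IRS1 and IRS2. The adaptors recruit phosphoinositide 3-kinase (PI3K), which activates AKT and through it mTOR and growth. The IGF-binding proteins hold IGFs outside the cell and limit their access to the receptors, and proteases such as PAPP-A release the ligand by cleaving some of them. In mouse lung, IGF1 is made by mesenchymal cells and macrophages, and IGFBP2 is known as a marker of mature alveolar type 1 cells.

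The proximal promoters of 4 members are shown here: Irs1 and Irs2, to set the paralogous adaptors side by side, and Igfbp2 and Igfbp6, the binding proteins that fell in both tumor comparisons. Each is the 250 bases before the transcription start in the RefSeq table of build GRCm38.p6, written 5′ to 3′ on the strand of the gene. The table holds 2 starts for Igfbp2, and the window of the first along the chromosome is printed. The windows are chr1:82291440-82291689 (minus strand), chr8:11008930-11009179 (minus strand), chr1:72824230-72824479 (plus strand) and chr15:102143936-102144185 (plus strand), and the deposited values rest on the older build mm9. Capitals mark the E-box CACGTG, which reads the same on both strands, and the GC box GGGCGG on either strand; these motifs do not overlap each other here.
Irs1: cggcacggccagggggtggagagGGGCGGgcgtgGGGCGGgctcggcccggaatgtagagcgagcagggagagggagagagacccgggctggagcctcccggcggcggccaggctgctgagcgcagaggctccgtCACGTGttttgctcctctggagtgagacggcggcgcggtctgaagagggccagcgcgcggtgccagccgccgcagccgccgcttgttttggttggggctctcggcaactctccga
Irs2: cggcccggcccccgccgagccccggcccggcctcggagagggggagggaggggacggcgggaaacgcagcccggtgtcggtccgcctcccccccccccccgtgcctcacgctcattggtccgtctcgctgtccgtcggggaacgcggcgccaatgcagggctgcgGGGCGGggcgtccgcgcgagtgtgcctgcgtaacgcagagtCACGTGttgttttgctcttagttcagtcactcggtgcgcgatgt
Igfbp2: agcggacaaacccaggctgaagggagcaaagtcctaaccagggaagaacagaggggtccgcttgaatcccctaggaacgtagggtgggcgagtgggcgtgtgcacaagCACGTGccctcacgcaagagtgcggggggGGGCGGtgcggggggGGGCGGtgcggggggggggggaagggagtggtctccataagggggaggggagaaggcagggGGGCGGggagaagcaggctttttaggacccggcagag
Igfbp6: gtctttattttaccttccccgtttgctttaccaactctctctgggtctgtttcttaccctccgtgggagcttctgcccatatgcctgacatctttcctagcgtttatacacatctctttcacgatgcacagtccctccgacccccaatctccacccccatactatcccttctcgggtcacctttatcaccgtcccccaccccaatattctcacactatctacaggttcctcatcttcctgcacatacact

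The Irs1 and Irs2 windows shared a run of 10 bases that contains CACGTG, whose first base lay 115 bases before the Irs1 start and 44 bases before the Irs2 start. CACGTG stood also 142 bases before the first Igfbp2 start, and 6.02% of the 32851 RefSeq windows of this length hold it. GGGCGG occurred 2 times in the Irs1 window, once for Irs2, 3 times in the printed Igfbp2 window and not in that of Igfbp6, and 32.7% of all windows hold it. CpG dinucleotides numbered 28 for Irs1, 34 for Irs2, 14 for the printed Igfbp2 window and 7 for Igfbp6, against a median of 6 over all windows. The window of the other Igfbp2 start, chr1:72825137-72825386, held neither motif and had 11 CpG. Of the 10 members, 9 had a window. The Igf1r window had 42 CpG, a number that 99.3% of all windows did not exceed. These matches describe the letters and were not tested against expression. Igfbp2 and Igfbp5 are neighbours on mouse chromosome 1, with no other gene between them in the RefSeq table of GRCm38.p6.

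Expression is given as FPKM, a fragment count scaled by transcript length and library size, which allows levels of different genes to be compared. Log2 differences are on the log2(FPKM + 1) scale with standard errors (SE) from limma, and understate changes of low values. A gene was called at an adjusted p under 0.05 over all genes tested. Libraries held 12028 to 13567 genes at 1 FPKM or more, and the spacing of low values placed depth at 1.19 to 1.86 times that of tumor 1. Ezh2 stood at 8.48, 23.5 and 22.6 FPKM in tumors 1, 2 and 3, 10.2 and 11.5 FPKM in OE normal lung and 2.58 and 3.72 FPKM in WT lung. Tumor 1 was thus below both OE normal lungs in Ezh2, and tumors 2 and 3 were above them. Tumor 1 stood apart: it lay at least 1 log2 unit from both other tumors in 1618 genes (11.5%), against 52 genes (0.370%) for tumor 2 and 46 (0.327%) for tumor 3. It also had 0.127 FPKM of Xist, the female-specific transcript, against 74.2 and 60.6 FPKM in tumors 2 and 3, and Xist likewise differed between the OE normal lungs (0.816 and 63.6 FPKM) but not between the WT lungs (0.131 and 0.346 FPKM). The Y-linked Eif2s3y was at 27.4 to 30.7 FPKM in the 4 libraries with low Xist and at most 0.0903 FPKM in the others, so tumor 1 came from another mouse than tumors 2 and 3, and the OE normal lungs from different mice. Results for the members in which tumor 1 stood apart are given with and without it. Without tumor 1 the comparison with WT lung sets 2 libraries with the female pattern against 2 with the male pattern, and there sex and tumor cannot be told apart. Without tumor 1 limma called 68.8% of genes between tumors and OE normal lung and 67.5% between tumors and WT lung, so these calls are read against that background. The alveolar type 2 marker Sftpc was listed at 0 in tumors 2 and 3 and the club cell marker Scgb1a1 at 0 in all 4 normal lungs. Other markers of these cells were high there: Sftpb at 6954 and 6779 FPKM in tumors 2 and 3, and Cyp2f2 at 1093 to 1619 FPKM in the normal lungs. Whether the 0 values mean no transcript or a missing value is not stated. Sftpc was at 35944 FPKM in tumor 1 and enters the library sum that rescaling to TPM uses.

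Igf1, the ligand, was highest in tumor 1. It stood at 15.2, 2.31 and 3.30 FPKM in tumors 1, 2 and 3, at 2.68 and 2.49 FPKM in OE normal lung and at 0.781 and 0.762 FPKM in the WT lungs. Tumor 1 exceeded the mean of the other tumors 5.42-fold, whereas tumor 2 lay just below and tumor 3 just above the OE normal lungs. All 5 libraries with EZH2 overexpression were above both WT lungs. Tumors exceeded WT lung by 1.79 on the log2 scale (SE 0.65, limma adjusted p = 0.0734). Leaving out tumor 1 gave 1.09 (SE 0.15, limma adjusted p = 0.00182). Over all alternatives its adjusted p ran from 0.00182 to 0.236. Between OE normal and WT lung the means differed 3.35-fold (limma log2 difference 1.02, SE 0.71, adjusted p = 0.881). Without tumor 1 the same difference had an SE of 0.15 and a limma adjusted p of 0.0480, a call made for 2.16% of all genes. No tumor enters this difference itself, and a fit of the 4 normal lungs alone did not call it (limma adjusted p = 0.140). Against OE normal lung the difference did not pass (0.78, SE 0.65, 95% interval -0.80 to 2.35, limma adjusted p = 0.380). Tumors 2 and 3 alone gave 0.075 (SE 0.15, limma adjusted p = 0.678). Summed FPKM of 8 macrophage markers was 1259, 431 and 949.5 in tumors 1, 2 and 3, 332 and 272 in OE normal lung and 158 and 125 in WT lung. Most of this sum was 1 gene, Chi3l3, and the other 7 summed to 175, 67.0 and 85.4 in the tumors, 151 and 104 in OE normal lung and 65.8 and 57.2 in WT lung. Of the 8 markers, 1 was called higher against OE normal lung, 3 against WT lung and 0 lower. The part of macrophages in the Igf1 values was not tested. In bulk samples fewer cells of a type and less RNA per cell cannot be told apart.

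The receptors behaved differently from each other. Insr, the insulin receptor, stood at 13.1, 15.5 and 14.8 FPKM in the tumors, 10.6 and 10.3 FPKM in OE normal lung and 9.96 and 8.78 FPKM in WT lung. Every tumor was above every normal lung, and the whole range was narrow. Insr rose 1.38-fold against OE normal lung (limma log2 difference 0.43, SE 0.13, adjusted p = 0.0393) and 1.54-fold against WT lung (0.57, SE 0.13, limma adjusted p = 0.0150). Against OE normal lung the call was kept in 5 of 14 alternatives: it was lost after rescaling to TPM (0.23, limma adjusted p = 0.248) and without any single library other than tumor 1 (limma adjusted p up to 0.171). Against WT lung it was kept in 9 of 14 and lost without tumor 2, tumor 3, WT 1 or WT 2 (limma adjusted p up to 0.132).

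Igf1r, the IGF1 receptor, was high in tumor 1 and low in the other tumors. It stood at 22.7, 5.66 and 4.85 FPKM in tumors 1, 2 and 3, 9.12 and 7.40 FPKM in OE normal lung and 10.4 and 11.0 FPKM in WT lung. Tumor 1 was above all 4 normal lungs and tumors 2 and 3 were below all 4. The mean of the tumors therefore did not separate from OE normal lung (limma log2 difference 0.08, SE 0.59, 95% interval -1.36 to 1.52, adjusted p = 0.927) or WT lung (-0.27, SE 0.59, 95% interval -1.71 to 1.18, limma adjusted p = 0.749). Without tumor 1, Igf1r was lower in tumors 2 and 3 than in OE normal lung (-0.56, SE 0.13, limma adjusted p = 0.0106) and WT lung (-0.91, SE 0.13, limma adjusted p = 0.00186). Its sign against OE normal lung was negative after rescaling to TPM (-0.15).

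The balance of the receptors within a library needs no scaling between libraries. The ratio of Insr to Igf1r was 0.577 in tumor 1, 2.73 in tumor 2 and 3.05 in tumor 3. It was 1.16 and 1.39 in OE normal lung and 0.957 and 0.798 in WT lung, so the tumors held both the lowest and the highest ratios. The summed FPKM of both receptors was 35.8 in tumor 1 and 17.7 to 21.1 in the other 6 libraries. The ratio did not separate tumors from either normal group (2-sided exact permutation p = 0.6 for both).

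Irs1, the adaptor used by both receptors, had the largest rise among receptors and adaptors. It stood at 5.83, 29.3 and 29.5 FPKM in tumors 1, 2 and 3, 2.89 and 1.81 FPKM in OE normal lung and 3.18 and 3.86 FPKM in WT lung. All tumors were above all normal lungs, and tumors 2 and 3 were nearly equal and exceeded tumor 1 5.05-fold on average. Against OE normal lung the log2 difference was 2.48 (SE 0.67, 9.17-fold between means, limma adjusted p = 0.0298). Leaving out tumor 1 gave 3.20 (SE 0.17, limma adjusted p = 1.03e-04), and the call was lost without any other single library (limma adjusted p up to 0.156). It was kept in 5 of 14 alternatives. Against WT lung the log2 difference was 2.04 (SE 0.67, 6.12-fold between means) and missed the threshold (limma adjusted p = 0.0557), passing without tumor 1 (2.75, SE 0.17, limma adjusted p = 1.36e-04).

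Irs2, the paralogous adaptor, moved less and more evenly. Its levels were 10.8, 9.05 and 9.10 FPKM in the tumors, 5.08 and 5.71 FPKM in OE normal lung and 6.46 and 6.49 FPKM in WT lung, with no overlap. Irs2 rose 1.79-fold against OE normal lung (limma log2 difference 0.73, SE 0.13, adjusted p = 0.00721), a call kept in 12 of 14 alternatives and lost without OE normal 1 (limma adjusted p = 0.0596). Against WT lung it rose 1.49-fold (0.51, SE 0.13, limma adjusted p = 0.0273), kept in 6 of 14 and lost without any single library other than tumor 1 (limma adjusted p up to 0.151). Markers of alveolar type 2 cells, the surfactant-making epithelium, were higher in tumors beside Insr, Irs1, Irs2 and Igfbp3: 6 of 8 were called higher in both comparisons and 0 lower (median log2 difference 1.68 against OE normal lung and 1.58 against WT lung). Leaving out Sftpc, the other 7 summed to 7606, 12422 and 12492 FPKM in tumors 1, 2 and 3 and 1900 to 3130 FPKM in the normal lungs. The part of these cells in the values of the 4 members was not tested.

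The ratio of Irs1 to Irs2 divided the tumors. It was 0.541 in tumor 1, within the 0.318 to 0.596 of the 4 normal lungs, and 3.24 and 3.25 in tumors 2 and 3. Irs2 was thus the more abundant adaptor transcript in tumor 1 and in every normal lung, and Irs1 in tumors 2 and 3. The sum of both adaptors was 16.6, 38.4 and 38.6 FPKM in the tumors and 7.53 to 10.4 FPKM in the normal lungs. The sum did not overlap between tumors and either normal group (2-sided exact permutation p = 0.2, the smallest this test can give for 3 against 2 libraries).

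**Figure D1:**
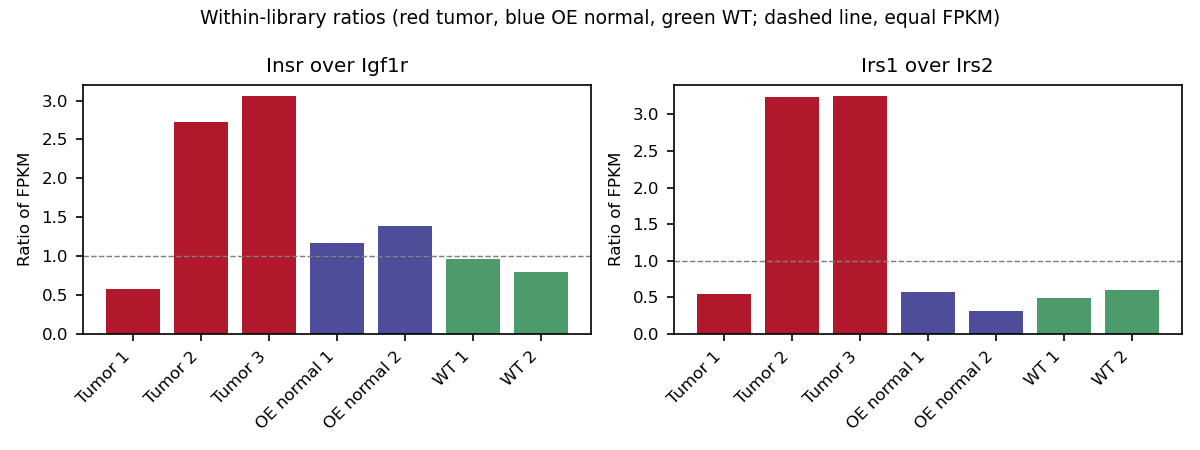
Ratio of FPKM of Insr to Igf1r (left) and of Irs1 to Irs2 (right) in each library, with 1 bar per library and a dashed line at equal FPKM. Tumors 2 and 3 stand at 2.73 and 3.05 for the receptors and at 3.24 and 3.25 for the adaptors, while tumor 1 is at 0.577 and 0.541.

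Igfbp2, which binds both IGFs and is a marker of alveolar type 1 cells, had the largest fall of group means among the members. It stood at 7.32, 1.35 and 3.53 FPKM in tumors 1, 2 and 3, 134 and 133 FPKM in OE normal lung and 168 and 203 FPKM in WT lung. Every tumor was far below every normal lung. The tumor mean was 32.8-fold below that of OE normal lung (limma log2 difference -4.92, SE 0.49, adjusted p = 8.82e-04) and 45.6-fold below that of WT lung (-5.38, SE 0.49, limma adjusted p = 6.35e-04). Both calls were kept in 14 of 14 alternatives. Summed FPKM of 6 alveolar type 1 markers ran from 752 to 1277 in the tumors, 1578 to 1826 in OE normal lung and 2533 to 2865 in WT lung, and 3 of the 6 fell in each comparison, 1 rising against OE normal lung. Without Ager, the gene of this list with the highest level over all libraries, the other 5 summed to 447, 302 and 316 FPKM in tumors 1, 2 and 3. In the normal lungs these 5 summed to 804 to 1451 FPKM. The part of these cells in the fall of Igfbp2 was not tested.

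Igfbp6, which binds IGF2 in preference to IGF1, fell in parallel. It stood at 8.43, 0.266 and 1.20 FPKM in the tumors, 97.4 and 68.8 FPKM in OE normal lung and 117 and 136 FPKM in WT lung. Tumor 1 was 11.5-fold above the mean of tumors 2 and 3, yet no tumor reached the normal range. The tumor mean was 25.2-fold below OE normal lung (limma log2 difference -4.80, SE 0.80, adjusted p = 0.00520) and 38.3-fold below WT lung (-5.42, SE 0.80, limma adjusted p = 0.00347), both kept in 14 of 14 alternatives. Without tumor 1 the differences were -5.63 (SE 0.30, limma adjusted p = 1.01e-04) and -6.25 (SE 0.30, limma adjusted p = 6.95e-05). Mesothelial markers moved with it: 4 of 4 tested fell in both comparisons, and their summed FPKM over 5 genes was 8.23, 0.208 and 1.87 in tumors 1, 2 and 3 against 58.0 to 109.8 in the normal lungs. Fibroblast markers summed to 407, 74.2 and 105 FPKM in tumors 1, 2 and 3 and 497 to 661 FPKM in the normal lungs, with 3 of 8 lower in each comparison. Without Mfap4, the fibroblast gene with the highest level over all libraries, tumor 1 was above the normal lungs (382 against 271 to 312 FPKM) and tumors 2 and 3 were below them (73.1 and 98.8 FPKM). Endothelial markers fell in 10 of 10 in both comparisons, with summed FPKM of 128 to 150 in the tumors and 1141 to 1415 in the normal lungs. Heart muscle markers fell in 5 of 5, from 482 to 1132 FPKM in the normal lungs to 1.71 to 3.52 FPKM in the tumors. Adipocyte markers fell in 4 of 4 tested against OE normal lung and 3 of 4 against WT lung. The part of these cell types in the falls of Igfbp2 and Igfbp6 was not tested.

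Igfbp3, the main IGF carrier of serum, was the binding protein that rose. It stood at 98.1, 58.0 and 52.5 FPKM in the tumors, 12.5 and 20.2 FPKM in OE normal lung and 35.6 and 25.0 FPKM in WT lung. All tumors were above all normal lungs, and both OE normal lungs were below both WT lungs. The tumor mean was 4.25-fold above OE normal lung (limma log2 difference 2.00, SE 0.34, adjusted p = 0.00565), kept in 14 of 14 alternatives. It was 2.30-fold above WT lung (1.14, SE 0.34, limma adjusted p = 0.0412), a call kept in 5 of 14 and lost without any single library other than tumor 1 (limma adjusted p up to 0.229). Between OE normal and WT lung the difference was -0.87 (SE 0.37, 95% interval -1.77 to 0.04, limma adjusted p = 0.603).

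Igfbp4, which inhibits IGF action until PAPP-A cleaves it, had the pattern of Igf1r. It stood at 159, 34.7 and 50.1 FPKM in tumors 1, 2 and 3, 107 and 94.1 FPKM in OE normal lung and 115 and 98.7 FPKM in WT lung. Tumor 1 was above all normal lungs and the other tumors below all of them. With all tumors the log2 difference was -0.61 against OE normal lung (SE 0.60, 95% interval -2.07 to 0.84, limma adjusted p = 0.452) and -0.70 against WT lung (SE 0.60, 95% interval -2.15 to 0.76, limma adjusted p = 0.392). Without tumor 1 it was -1.25 (SE 0.19, limma adjusted p = 0.00253) and -1.33 (SE 0.19, limma adjusted p = 0.00206). Smooth muscle and pericyte markers summed to 395, 67.2 and 93.3 FPKM over 7 genes in tumors 1, 2 and 3 and 312 to 626 FPKM in the normal lungs, and 5 of 7 were called lower in both comparisons. The high sum of tumor 1 was mostly Acta2 (313, 26.8 and 36.9 FPKM in the tumors), and the other 6 summed to 81.9, 40.5 and 56.3 FPKM in the tumors and 214 to 443 FPKM in the normal lungs. Fibroblast markers without Mfap4 had the order of Igfbp4. Tumor 1 was above the normal lungs (382 against 271 to 312 FPKM) and tumors 2 and 3 were below them (73.1 and 98.8 FPKM). The part of these cell types in the Igfbp4 values was not tested.

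Igfbp5, a binding protein that also attaches to extracellular matrix, set tumor 2 apart. It stood at 19.4, 63.6 and 26.1 FPKM in tumors 1, 2 and 3, 69.6 and 56.9 FPKM in OE normal lung and 83.7 and 61.9 FPKM in WT lung. Tumor 2 lay within the range of the normal lungs and the other tumors below it. The log2 difference was -0.96 against OE normal lung (SE 0.48, limma adjusted p = 0.162) and -1.15 against WT lung (SE 0.48, limma adjusted p = 0.106). Without tumor 2 it was called against OE normal lung (-1.44, limma adjusted p = 0.0108) and WT lung (-1.63, limma adjusted p = 0.00769), and over all alternatives the adjusted p ran up to 0.427 and 0.363. Its neighbour on the chromosome, Igfbp2, had no tumor near the normal range.

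Together the 5 binding proteins summed to 292, 158 and 133 FPKM in the tumors, 421 and 373 FPKM in OE normal lung and 519 and 524 FPKM in WT lung. The groups did not overlap (2-sided exact permutation p = 0.2 for tumors against either normal group, and p = 0.333 between the normal groups, in each case the smallest possible). The make-up of the sum changed as well. Igfbp3 made up 33.6% to 39.3% of it in the tumors and 2.97% to 6.86% in the normal lungs (exact permutation p = 0.2 against either group). Igfbp2 made up 0.853% to 2.65% in the tumors and 31.9% to 38.7% in the normal lungs. Igfbp6 made up 0.169% to 2.89% in the tumors and 18.5% to 25.9% in the normal lungs. The leading binding protein was Igfbp4 in tumor 1 (54.4%), Igfbp5 in tumor 2 (40.3%) and Igfbp3 in tumor 3 (39.3%), while in each normal lung it was Igfbp2.

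**Figure D2:**
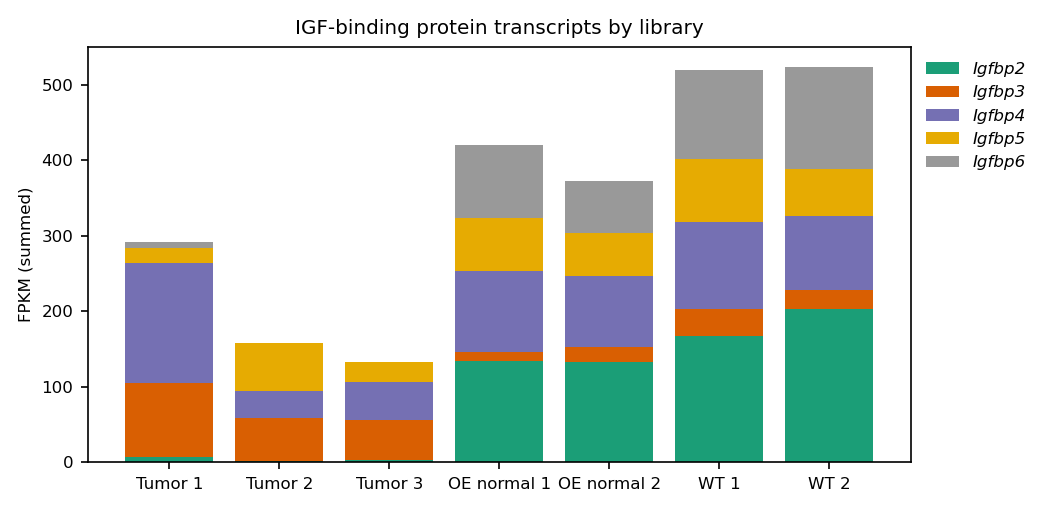
Summed FPKM of Igfbp2 to Igfbp6 in each library, stacked by gene. The tumors reach 133 to 292 FPKM and consist mainly of Igfbp3, Igfbp4 and Igfbp5, while the normal lungs reach 373 to 524 FPKM with large parts from Igfbp2 and Igfbp6.

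Ranked by level, the order of the members differed between tissues. In WT lung Igfbp2 (185 ± 24.5 FPKM, SD, n = 2) led, followed by Igfbp6 (126 ± 13.1), Igfbp4 (107 ± 11.3) and Igfbp5 (72.8 ± 15.4). Igfbp6 and Igfbp4 were close in WT 1, at 117 and 115 FPKM. In OE normal lung Igfbp2 (133 ± 1.10 FPKM, SD, n = 2) led again, and Igfbp4 (101 ± 9.21) and Igfbp6 (83.1 ± 20.2) overlapped. In tumors Igfbp4 (81.2 ± 67.7 FPKM, SD, n = 3) and Igfbp3 (69.5 ± 24.9) were highest and overlapped, and Igfbp2 (4.07 ± 3.02) and Igfbp6 (3.30 ± 4.47) had the lowest means. Library by library they were the lowest pair in tumor 2 alone: Irs1 was below both in tumor 1, and Igf1 (3.30 FPKM) was below Igfbp2 (3.53 FPKM) in tumor 3. Igf1 was the lowest member in WT lung (0.771 ± 0.0131 FPKM, SD, n = 2).

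**Figure D3:**
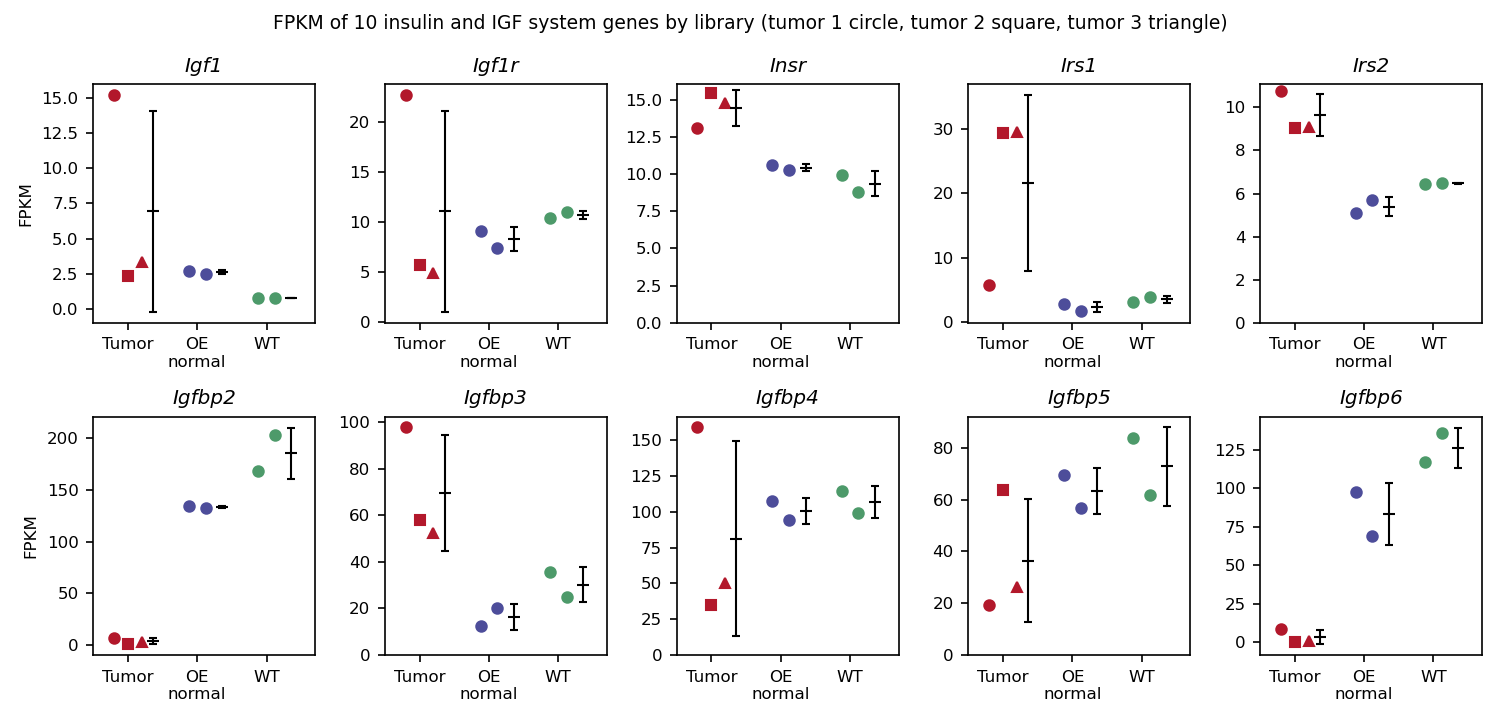
FPKM of each member in each library on linear axes, with points for single libraries and the group mean ± SD in black (n = 3 tumors, n = 2 for each normal group). Tumor 1 is the highest library for Igf1, Igf1r, Irs2, Igfbp3 and Igfbp4, and all tumors lie far below the normal lungs for Igfbp2 and Igfbp6.

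Counted over the members, limma called 6 of 10 between tumors and OE normal lung, where 38.1% of all genes tested were called. Insr, Irs1, Irs2 and Igfbp3 were higher (13.1% of all genes were called higher) and Igfbp2 and Igfbp6 lower (24.9%). The groups did not overlap for 6 members, against 60.9% of all genes, a share of members close to the background. Against WT lung, 5 of 10 were called (38.2% of all genes): Insr, Irs2 and Igfbp3 higher (15.0%) and Igfbp2 and Igfbp6 lower (23.2%), and 7 did not overlap (63.9% of all genes). The median log2 difference over the members was 0.25 against OE normal lung and 0.12 against WT lung, beside -0.11 and -0.06 over all genes tested. These comparisons share the tumor libraries. The count against OE normal lung was 8 without tumor 1, where 68.8% of all genes were called, and 3 without OE normal 1. The count against WT lung was 9 without tumor 1 (67.5% of all genes), 3 without either OE normal lung, and 2 without tumor 3, WT 1 or WT 2. For the other omissions the share of all genes called is not given, so these counts cannot be read as a property of the members.

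Between OE normal and WT lung, limma called 0 of 10 members and 0 of 14057 genes (0.00%), with 0 members and 1208 genes at an unadjusted p under 0.05. Without tumor 1, Igf1 was the 1 member called, a call that a fit of the normal lungs alone did not make. The groups did not overlap for 8 of 10 members, against 52.6% of all genes with 2 libraries on each side. The median log2 difference over the members was -0.29, beside 0.02 over all genes tested. The 95% intervals of the log2 difference reached from -0.19 to 0.48 for Insr and from -0.58 to 0.13 for Irs2, which were the narrowest, and from -2.73 to 1.50 for Igfbp6, the widest.

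**Figure D4:**
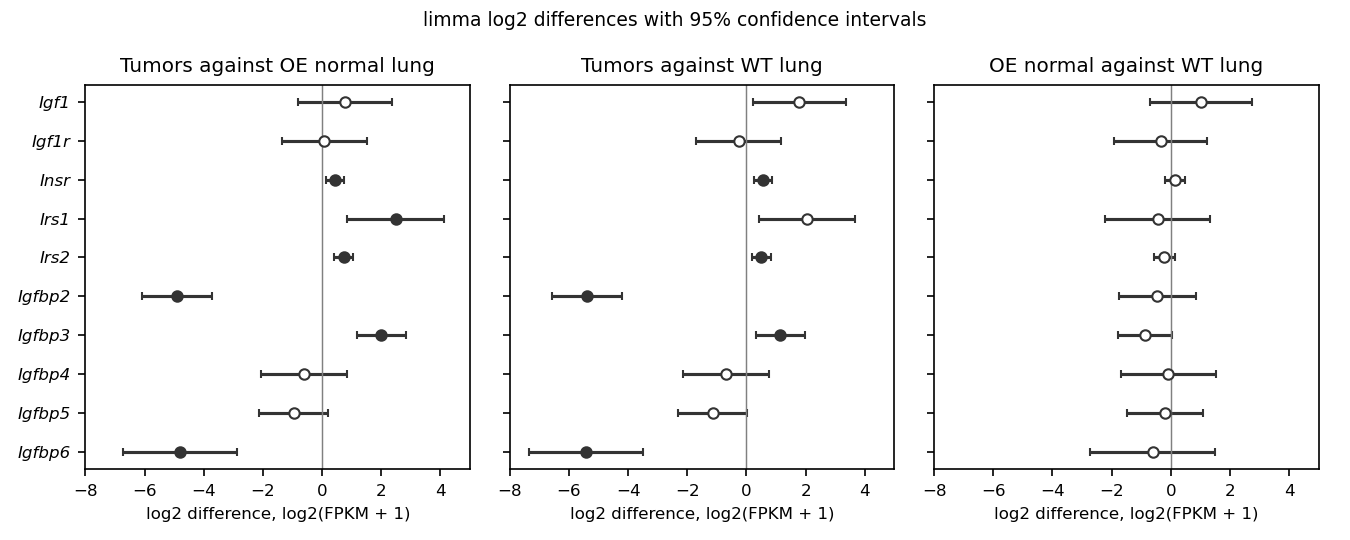
Log2 difference of each member in the 3 comparisons, with 95% confidence intervals from limma; filled points have an adjusted p under 0.05. Igfbp2 and Igfbp6 lie near -5 in both tumor comparisons, and no point is filled between OE normal and WT lung.

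Among the tumors themselves, 5 of 10 members set tumor 1 at least 1 log2 unit from both others, against 11.5% of all genes tested. Igf1, Igf1r, Igfbp4 and Igfbp6 were higher in tumor 1 and Irs1 was lower. Igfbp5 did the same for tumor 2 (1 of 10 members, 0.370% of all genes) and no member did for tumor 3 (0.327%). Insr and Irs2 were the steadiest, with the highest tumor 1.18-fold and 1.19-fold above the lowest, and Igfbp6 the most variable at 31.7-fold. Igf1r and Igfbp4 were above all 4 normal lungs in tumor 1 and below all 4 in tumors 2 and 3, a pattern held by 2 of 10 members and 6.69% of all genes. No member had the opposite pattern, which 3.95% of all genes held. With 1 library on one side these differences among tumors have no test.

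Other genes of the pathway were taken from a list of 60, of which 48 were tested. Between tumors and OE normal lung 8 were higher and 6 lower, a called share below that of all genes (38.1%), with a median log2 difference of -0.01. Between tumors and WT lung 7 were higher and 7 lower (median -0.02), and between OE normal and WT lung limma called 0, with 4 at an unadjusted p under 0.05 and 1 (Pik3cd, higher in OE normal lung) called without tumor 1. The count against OE normal lung was 35 without tumor 1 (68.8% of all genes), 9 without tumor 2, 7 without tumor 3 and 5 without either OE normal lung. The count against WT lung was 33 without tumor 1 (67.5% of all genes), 6 and 5 without tumors 2 and 3, 2 without WT 1 and 4 without WT 2. For the other omissions the share of all genes is not given. Ins1, Ins2 and the adaptor gene Irs4 were listed at 0 in all 7 libraries, and Igfbp1 did not exceed 0.0556 FPKM. Igf2, the other IGF ligand, stood at 5.67, 0.730 and 0.465 FPKM in tumors 1, 2 and 3 and 3.05 to 4.71 FPKM in the normal lungs (log2 difference -0.93 against OE normal lung, SE 0.64, limma adjusted p = 0.292). The PAPP-A gene Pappa was at 0.299, 0.0503 and 0.0606 FPKM in the tumors and 0.180 to 0.300 FPKM in the normal lungs, below the minimum for testing. Stc2, an inhibitor of PAPP-A, rose from 1.54 and 1.23 FPKM in OE normal lung to 3.04, 2.73 and 4.10 FPKM in the tumors (limma log2 difference 0.84, SE 0.18, adjusted p = 0.0134, and 0.71 to 1.41 on the log2 scale over the alternatives). This call was kept in 11 of 14 alternatives. It was lost with the replicate number as a block and without OE normal 1 or OE normal 2 (limma adjusted p up to 0.0925).

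Of 5 other adaptors tested, 2 rose (13.1% of all genes were called higher) and 1 fell (24.9%) against OE normal lung. Shc1, which links these receptors to the RAS pathway, was at 49.9, 136 and 129 FPKM in tumors 1, 2 and 3 and 30.8 and 26.5 FPKM in OE normal lung. Its log2 difference of 1.71 (SE 0.43, limma adjusted p = 0.0240) was kept in 8 of 14 alternatives and lost without tumor 2, tumor 3, OE normal 1 or OE normal 2 (limma adjusted p up to 0.130). Like Irs1, it was lower in tumor 1 than in tumors 2 and 3. Grb2, a partner of SHC1, was at 27.8, 17.3 and 18.9 FPKM in the tumors and 37.8 and 46.3 FPKM in OE normal lung (-0.97, SE 0.22, limma adjusted p = 0.0172). Its call was kept in 10 of 14 alternatives. It was lost with the replicate number as a block and without tumor 3, OE normal 1 or OE normal 2 (limma adjusted p up to 0.116). Of 8 genes for inhibitors of receptor signaling, 1 was called against OE normal lung, and 1 higher and 1 lower against WT lung. The 1 called against OE normal lung was Trib3, which encodes a pseudokinase reported to bind AKT. It was higher, at 7.94, 13.9 and 13.2 against 3.03 and 3.47 FPKM (1.54, SE 0.25, limma adjusted p = 0.00473). Grb14 was at 19.9, 86.4 and 88.0 against 17.8 and 18.0 FPKM and was not called (1.53, SE 0.63, limma adjusted p = 0.104). Also not called, Ptprf was higher and Ptpn1 lower in every tumor than in both OE normal lungs.

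Among 14 PI3K and AKT genes, 4 rose (13.1% of all genes were called higher) and 4 fell (24.9%) against OE normal lung. Pik3cd, the catalytic subunit of leukocytes, was at 6.36, 2.71 and 3.50 FPKM in tumors 1, 2 and 3 and 17.0 and 17.1 FPKM in OE normal lung (-1.86, SE 0.30, limma adjusted p = 0.00492). Against the 7.07 and 5.21 FPKM of WT lung the tumors did not pass (limma adjusted p = 0.227). Of 9 mTOR pathway genes and 5 FOXO and GSK3 genes, limma called 0 against OE normal lung, with 1 and 0 at an unadjusted p under 0.05. The IGF2 mRNA-binding protein Igf2bp2 fell from 2.36 and 2.15 FPKM to 0.542, 0.315 and 0.464 FPKM (-1.18, SE 0.13, limma adjusted p = 0.00138, and -2.14 to -0.48 over the alternatives, each of which kept the call).

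Across the 7 libraries Igfbp2 and Igfbp6 had the closest profiles of any pair of members (Pearson r of log2(FPKM + 1) = 0.990), and Irs2 and Igfbp3 followed (r = 0.975). Insr ran opposite to Igfbp6 and Igfbp2 (r = -0.977 and -0.976). These values are descriptions over 7 libraries that share groups and scaling. Among other genes with a mean of at least 5 FPKM, the profiles most like Igfbp6 were Cpeb1 and Ace, and those most like Igfbp2 were Gsn and Pcolce2 (r = 0.998 to 1.000). Those most like Irs1 were 5730408K05Rik and Blcap (r = 0.999 and 0.998), and like Irs2 Apln and Banf1 (r = 0.998 and 0.996). Igf1r was most like Peli1 and Tada2a (r = 0.995 and 0.986), Insr like Scaf8 and H2afz (r = 0.996 and 0.995) and Igf1 like Adamdec1 and Slc10a3 (r = 0.992 and 0.990). Igfbp3 was most like Fam53c and Eif4g1 (r = 0.996 and 0.989) and Igfbp4 like Tmed3 and Mfap5 (r = 0.993 and 0.991). For Igfbp5 they were Mir1943 and Mir5107 (r = 0.971 and 0.966), microRNA genes listed at 0 in tumors 1 and 3.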

How the data were processed

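RNA sequencing of 7 mouse libraries was analysed from 1 deposited file per library, holding 22474 rows of a gene symbol and an FPKM value. The authors made the FPKM values with Cufflinks 2.0.0 after alignment by TopHat or TopHat2 to build mm9, as the submitters' processing notes state. The file headers name only samples. The annotation, normalization option, strand setting and depth are not given in the sources. Rows with a date in place of a symbol (27 in every file) were left out. Members and lists were chosen with earlier results of these data known.

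Groups came from the labels. With a pseudocount of 1 FPKM, log2 values of the 14057 genes that reached 1 FPKM in 2 or more libraries were fitted in limma 3.58.1 (R 4.3.3), using all 7 libraries in 3 groups, eBayes moderation with trend, 2-sided tests and Benjamini-Hochberg adjustment over all genes. The procedure was tested on simulated data. Pathway genes were named by rule: up to 2 called genes per role whose groups did not overlap and of which 1 group averaged 2 FPKM or more. Of the genes so named, 1 is not reported here. Igf2, Pappa, Grb14, Ptprf, Ptpn1 and the genes near 0 were named after their values were seen. Like profiles were the 2 highest r per member. Ratios were compared by exact permutation. The median SE was 0.19 for differences involving tumors and 0.21 for OE normal against WT lung. Without read totals no counting interval can be given. Plots used matplotlib 3.10.9 in Python 3.11.15.

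Alternatives were a pseudocount of 0.1, no filter, scaling by median of ratios, to TPM or by quantiles, a fit limited to the groups compared, the replicate number as a block, and omission of each library.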

Additional observations from a re-analysis of the deposited data

How the results depend on the processing

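The falls of Igfbp2 and Igfbp6 in both tumor comparisons and the rise of Igfbp3 against OE normal lung kept their call in 14 of 14 alternatives. With 1 library left out, the members called numbered 3 to 8 for tumors against OE normal lung, 2 to 9 for tumors against WT lung and 0 to 1 for OE normal against WT lung. The other pathway genes called then numbered 5 to 35, 2 to 33 and 0 to 1. The highest counts in both tumor comparisons came without tumor 1, where 68.8% and 67.5% of all genes were called. When only the groups compared were fitted, 4 members were called for tumors against OE normal lung and 3 for tumors against WT lung. With the replicate number as a block, members called were 3 against OE normal lung and 2 against WT lung. Pathway genes then numbered 7 and 5. Tumor 3 is alone in its block and adds nothing to the block fit. For these fits the share of all genes called is not given, so the counts cannot be read as a property of these genes. Deviations of same-numbered libraries from their group means did not correlate (r from -0.03 to 0.03). With 2 or 3 libraries per group this cannot show whether the numbers pair libraries of the same mouse. Tumor 1 and OE normal 1 both had the male pattern of Xist and Eif2s3y, and tumor 2 and OE normal 2 both had the female pattern.

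Directions turned for Igf1r in both tumor comparisons, and for Igfbp4 and Igfbp5 between OE normal and WT lung. Igf1r against OE normal lung was -0.15 after rescaling to TPM. With 1 library left out it ran from -0.56 (without tumor 1, limma adjusted p = 0.0106) to 0.45. Igf1r against WT lung was 0.10 with the replicate block. With 1 library left out it ran from -0.91 (without tumor 1, limma adjusted p = 0.00186) to 0.10. Between OE normal and WT lung Igfbp4 was 0.049 after rescaling to TPM and from -0.19 to 0.024 with 1 library left out, and Igfbp5 from -0.40 to 0.024. The median log2 difference over all genes for tumors against OE normal lung moved from -0.11 to 0.05, -0.35 and 0.13 under median-of-ratios, TPM and quantile scaling. With 1844 genes higher and 3506 lower as deposited, these scalings gave 2548 and 3128, 1115 and 5335, and 3390 and 2666. The cause of these changes was not tested.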
